A study of Mus musculus with 6 samples.

Results

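The complement genes described here are 35 components, regulators and receptors, taken by symbol from a table of 56350 mouse genes. Each symbol was found once. By the generally known main source of each product, 20 were classed as hepatocyte-made, 9 as myeloid-made and 1 (Cfd) as adipocyte-made. The other 5 were classed as membrane regulators of many cell types. The classes were not read from these data, and the source of Cfd in these libraries was not tested. Liver RNA was sequenced in bulk from mice labelled wild-type (WT, 3 libraries) and from mice labelled as having a hepatocyte-specific knockout of Atg14 (HepKO, 3 libraries). Strain, age, sex, treatment and the Cre line are not given here. No label states that each sample was a different mouse, and p-values speak only of the variation among these 6 libraries, which may be technical. A hepatocyte-specific knockout leaves Atg14 in the other cells of the liver, and bulk RNA mixes all of them.

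Complement is a cascade of plasma proteins that is started on a surface by antibody and C1q (classical pathway), by sugar-binding lectins (lectin pathway) or by spontaneous turnover of C3 (alternative pathway). All routes meet at the C3 convertases, which cleave C3 to tag the surface, and lead on to cleavage of C5 and assembly of a membrane-piercing complex from the terminal components. Hepatocytes secrete most of the plasma components, whereas macrophages, including the Kupffer cells of the liver, make C1q, properdin and the receptors for the C3a and C5a fragments.

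Libraries held 33145684 to 48951937 counts. Atg14, the target, had 620, 796 and 719 counts in WT and 329, 379 and 313 in HepKO (log2 fold change -1.54 ± 0.16, edgeR adjusted p = 4.69e-04). HepKO replicate 1 stood apart from the other 5 libraries in sex-linked genes: it had 30377 counts of Xist against 2 to 22 elsewhere, and 3 to 6 counts of each of Ddx3y, Eif2s3y, Kdm5d and Uty against 571 to 3482 elsewhere. The labels give no sex, and results that rested on this library are given with and without it. Levels below are counts per 1000000 (CPM) on totals scaled by the trimmed mean of M-values (TMM), given for replicates 1 to 3. Each log2 fold change is HepKO over WT with its SE. A call is a Benjamini-Hochberg adjusted p under 0.05 in edgeR's quasi-likelihood test over all 16051 genes tested. The scaling mattered: the median log2 fold change of all tested genes was 0.01 with TMM and 0.52 with unscaled library totals.

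Myeloid-made members were mostly higher in HepKO, and hepatocyte-made members went both ways. Of 8 myeloid-made members tested, 7 rose and 0 fell, with a median log2 fold change of 1.79. Of 20 hepatocyte-made members, 3 rose (Mbl2, C2 and Clu), 4 fell (C1s1, Masp2, C8g and Vtn) and 13 gave no call, with a median of -0.21. Over all tested genes, 19.5% rose and 18.7% fell, so the hepatocyte-made counts lay near the background and the count of myeloid-made genes that rose lay above it. The membrane regulators had 3 of 5 lower and 0 higher, and Cfd fell. In total 34 of the 35 members passed the filter on low counts, and 18 were called (52.9%, against 38.2% of all tested genes). Cfd passed that filter through the WT libraries alone, so it had to differ if it was tested at all. It is nonetheless counted among the 18. Fcnb did not pass.

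With library totals in place of TMM, 10 members were higher and 4 lower under both scalings. The 10 were C1qa, C1qb, C1qc, Cfp, C3ar1, C5ar1, C5ar2, Mbl2, C2 and Clu, and the 4 were Masp2, C8g, Cfd and Susd4. The calls of C1s1, Vtn, Cd59a and Cr1l ended under library totals, where 18 members were higher and 4 lower (22 of 34 called, against 52.2% of all tested genes) and the median of the hepatocyte-made members turned to 0.30, below the 0.52 of all genes. Under library totals 9 of the 20 hepatocyte-made members were higher and 2 lower, against 46.4% and 5.84% of all tested genes. Without HepKO replicate 1, all 18 calls were kept (background 33.9%, 16.3% higher and 17.5% lower), and the median of the hepatocyte-made members moved to -0.02.

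**Figure D1:**
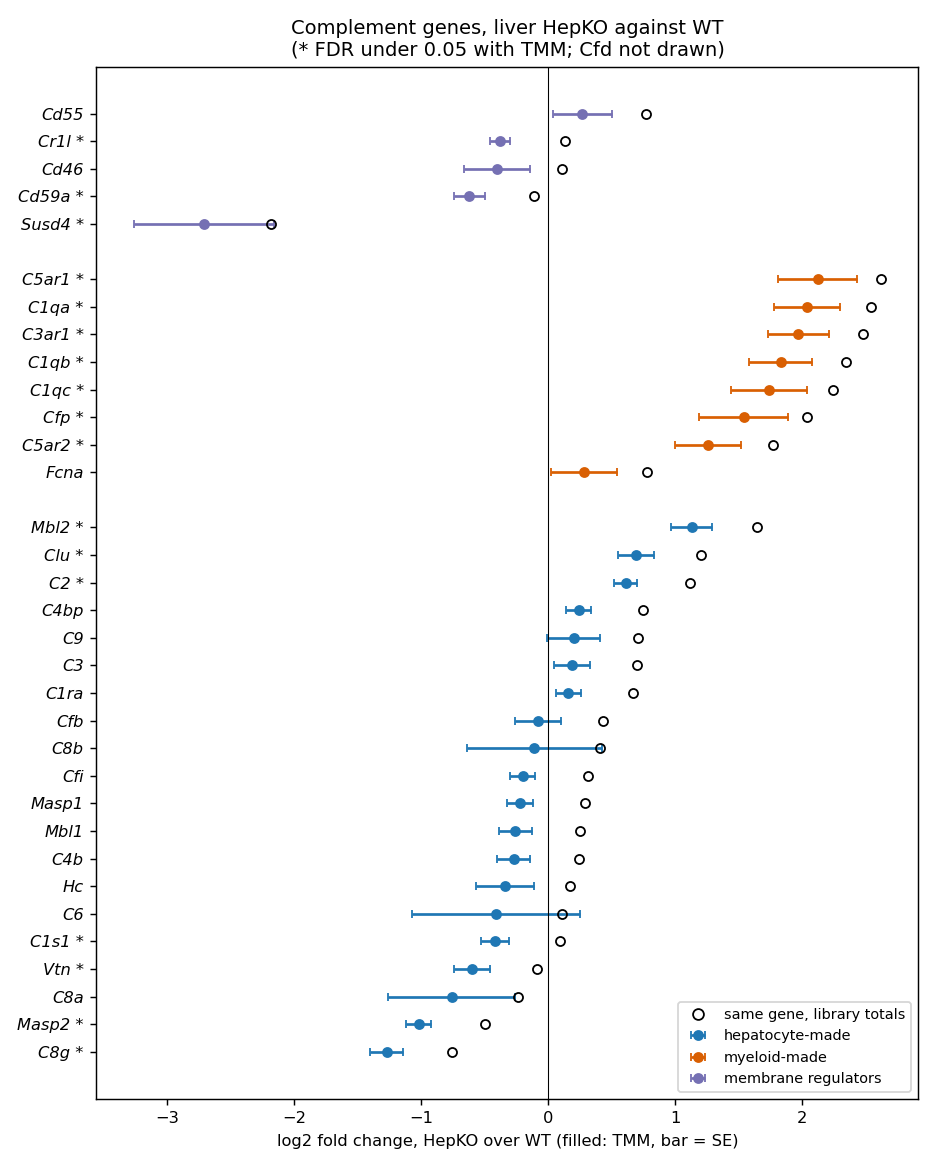
Log2 fold change, HepKO over WT (x axis), of 33 complement genes (y axis) by class. Filled points are TMM values with SE bars, open circles the same genes with library totals, and an asterisk marks an adjusted p under 0.05 with TMM. The myeloid-made genes other than Fcna lie between 1.26 and 2.12, while the hepatocyte-made genes lie between -1.27 and 1.13. Cfd, at -9.70, is not drawn.

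Among genes that start the classical pathway, the 3 chains of C1q rose, C1s1 fell under TMM and C1ra gave no call. C1qa, C1qb and C1qc encode the chains of the recognition molecule and are neighbours on the minus strand of chromosome 4 (GRCm38, mm10). C1qb spans 136880129 to 136886187, C1qc 136889804 to 136893065 and C1qa 136895917 to 136898803, with 3616 and 2851 bases between them. RefSeq promoter windows (build GRCm38.p6) were found for 28 of the 35 members. Those of C1qb and C1qc are shown because these genes moved together, and C1qa had none in the table. Capitals mark GAGGAA, the core of sites for ETS factors such as PU.1, on either strand.

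C1qb, chr4:136886201-136886450, minus strand: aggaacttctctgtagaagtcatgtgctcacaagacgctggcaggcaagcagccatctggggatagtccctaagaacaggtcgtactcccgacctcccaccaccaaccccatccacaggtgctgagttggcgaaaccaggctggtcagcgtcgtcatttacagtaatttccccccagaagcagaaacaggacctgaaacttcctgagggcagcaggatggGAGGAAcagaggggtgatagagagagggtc
C1qc, chr4:136893066-136893164, minus strand: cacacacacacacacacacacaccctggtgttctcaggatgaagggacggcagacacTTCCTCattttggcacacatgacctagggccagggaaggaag
The C1qc window is printed only as far as the annotated exon. Each window held 1 match, 30 bases before the RefSeq start site of C1qb (136886200) and 193 bases before that of C1qc (136892914). The RefSeq start of C1qc lies inside the annotated gene, and the 151 bases of its window nearest to that start are not printed. In windows of 250 bases before a start site, GAGGAA or its reverse complement was found for 4 of 8 myeloid-made members (C1qb, C1qc, Fcna and C5ar2), 0 of 14 hepatocyte-made members and 25.9% of all 27025 genes. The 4 included Fcna, which was not called. A match describes letters only, not a site in use.

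C1qa had 14.7, 26.4 and 16.0 CPM in WT and 90.3, 57.0 and 87.6 CPM in HepKO (log2 fold change 2.04 ± 0.26, edgeR adjusted p = 9.73e-04). Every HepKO library was above every WT library, and WT replicate 2 was the highest of its group. C1qb had 18.5, 31.8 and 19.7 CPM in WT and 90.7, 60.4 and 98.8 CPM in HepKO (log2 fold change 1.83 ± 0.25, edgeR adjusted p = 0.00129). C1qc had 17.0, 30.7 and 17.5 CPM in WT and 84.9, 47.1 and 85.9 CPM in HepKO (log2 fold change 1.74 ± 0.30, edgeR adjusted p = 0.00315). All 3 genes shared their order of libraries in WT, and HepKO replicate 2 was the lowest of its group for each. The chains did not change in the same proportion: C1qc reads per C1qa read came to 1.15, 1.16 and 1.09 in WT against 0.939, 0.827 and 0.980 in HepKO, and for C1qb they were 1.26, 1.20 and 1.23 against 1.0, 1.06 and 1.13. Such a ratio within a library does not depend on the scaling between libraries, and neither ratio overlapped between the groups.

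C1ra and C1s1 encode the serine proteases carried by C1q, of which C1s cleaves C4 and C2. C1ra had 266, 226 and 255 CPM in WT and 274, 272 and 287 CPM in HepKO, which gave no call (log2 fold change 0.16 ± 0.10, edgeR adjusted p = 0.255; 0.67 with library totals, adjusted p = 9.29e-04). C1s1 had 705, 737 and 721 CPM in WT and 491, 558 and 564 CPM in HepKO and fell under TMM (log2 fold change -0.42 ± 0.11, edgeR adjusted p = 0.0161). The groups did not overlap for either gene, in opposite directions. The C1s1 call ended without WT replicate 2 (adjusted p = 0.0795), without WT replicate 3 (0.0549) and with library totals (0.521, log2 fold change 0.09). The ratio of C1s1 to C1ra reads was 2.65, 3.26 and 2.82 in WT and 1.79, 2.05 and 1.96 in HepKO, so the pair changed unequally whichever scaling was used. Reads could have been split with the near-identical copies C1rb and C1s2, which had at most 6 and 16 counts in a library.

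The receptors for complement fragments rose together. C3ar1, the receptor for C3a, had 3.72, 3.23 and 2.02 CPM in WT and 11.4, 11 and 12.7 CPM in HepKO (log2 fold change 1.97 ± 0.24, edgeR adjusted p = 7.29e-04). C5ar1, the receptor through which C5a attracts neutrophils and macrophages, had 1.28, 1.37 and 1.23 CPM in WT and 5.08, 3.86 and 7.95 CPM in HepKO (log2 fold change 2.12 ± 0.31, edgeR adjusted p = 0.00170). C5ar2, a C5a receptor that does not couple to G proteins, had 1.11, 1.56 and 1.67 CPM in WT and 3.65, 3.37 and 3.4 CPM in HepKO (log2 fold change 1.26 ± 0.26, edgeR adjusted p = 0.00757). None of the 3 overlapped between the groups, and 27.1% of all tested genes were likewise higher in HepKO without overlap. C5ar2 (16234585 to 16244154) and C5ar1 (16246743 to 16259540) are neighbours on chromosome 7, minus strand, with 2588 bases between them. These are transcripts of low level: WT libraries held 38 to 49 counts of C5ar1 and 33 to 57 counts of C5ar2.

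Properdin, the product of Cfp, stabilises the alternative pathway convertase and is made by myeloid cells. Cfp had 8.58, 17.3 and 10.8 CPM in WT and 49.3, 20.3 and 36.9 CPM in HepKO (log2 fold change 1.54 ± 0.35, edgeR adjusted p = 0.0111). The groups did not overlap, but HepKO replicate 2 lay just above WT replicate 2.

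Ficolins are lectins that start the lectin pathway, and Fcna is the form of resident macrophages. It had 20.3, 32.3 and 29.1 CPM in WT and 40.1, 21 and 38.0 CPM in HepKO, with overlapping groups and no call (log2 fold change 0.28 ± 0.26, edgeR adjusted p = 0.441; 0.78 with library totals, adjusted p = 0.0382). Fcna did not keep step with C1q: per read of the 3 C1q genes it had 0.404, 0.363 and 0.546 reads in WT and 0.151, 0.128 and 0.139 in HepKO, a mean of 0.438 ± 0.0960 against 0.139 ± 0.0115 (SD, n = 3 each). Fcnb, the ficolin of neutrophils and monocytes, had 0 counts in each WT library and 2, 0 and 6 counts in HepKO, and was not tested.

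**Figure D2:**
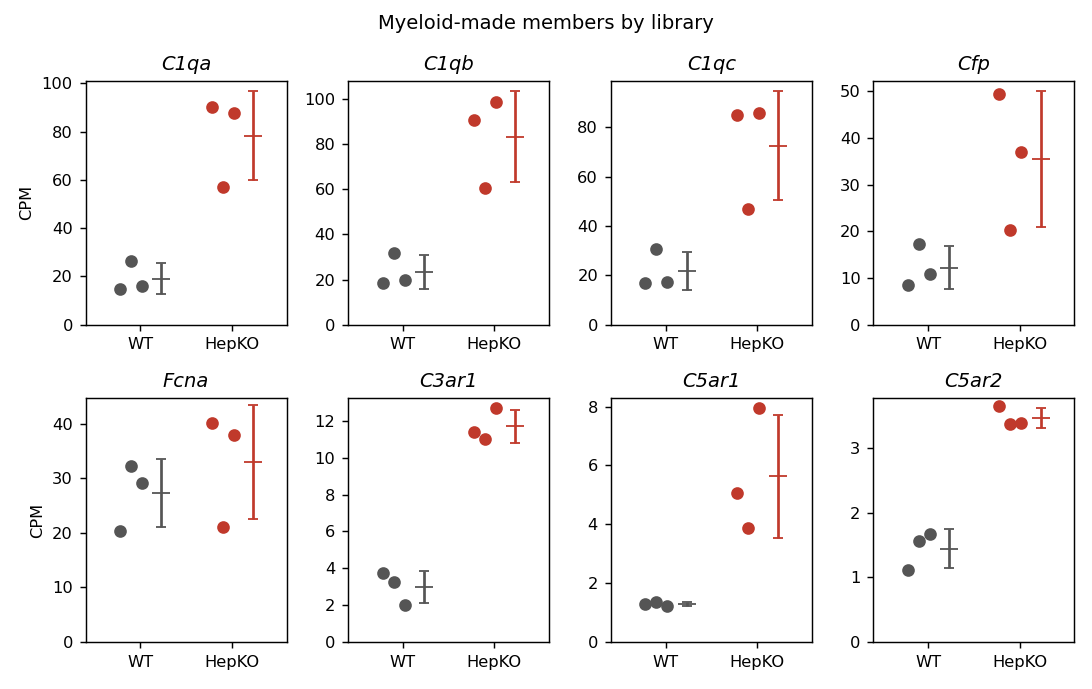
CPM (y axis, linear, from 0) of 8 myeloid-made complement genes in each library of WT and HepKO, with points for libraries and mean ± SD (n = 3) beside them. The groups separate for 7 genes, C1qa for example from 14.7 to 26.4 CPM in WT and from 57.0 to 90.3 CPM in HepKO, and overlap for Fcna. Of all tested genes, 27.1% were higher in every HepKO library than in any WT library.

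Markers of myeloid cells moved with these genes. All 8 genes listed as markers of myeloid cells in general rose (median log2 fold change 1.97). Some of them, such as Ptprc and Laptm5, are shared with other leukocytes. The summed level of the 8 was 53.7 to 113 CPM in WT and 221 to 321 CPM in HepKO. Of 8 Kupffer cell markers 7 rose (median 1.25; summed level 327 to 457 CPM in WT and 526 to 896 CPM in HepKO), though 4 rose without WT replicate 1, HepKO replicate 1 or HepKO replicate 3 and 3 without WT replicate 3. All 7 tested markers of recruited monocytes and macrophages rose (median 2.74; 50 to 109 CPM and 236 to 324 CPM). Most of that sum was Lyz2 and Cd9 (32.8 and 38.4 of 76.7 CPM in WT replicate 1, 177 and 60.3 of 324 CPM in HepKO replicate 1). None of the 8 listed was at 0 in any library apart from Trem2, which had no counts in 5 libraries. Both tested neutrophil markers rose, and the 8 listed summed to 0.703 to 2.37 CPM in WT and 3.03 to 13.8 CPM in HepKO, with Ly6g at 0 in all libraries but HepKO replicate 3. Without that library 0 of 3 tested neutrophil markers were called, and without WT replicate 3 it was 1 of 6. In bulk RNA more cells of a type and more RNA per cell cannot be told apart. Per read of the 8 general markers, the C1q genes had 0.935, 0.789 and 0.869 reads in WT and 0.829, 0.743 and 0.852 in HepKO, which overlapped. The 3 receptor genes also overlapped on that measure, at 0.114, 0.0546 and 0.0803 against 0.0628, 0.0826 and 0.0752. Fcna did not, at 0.378, 0.287 and 0.475 against 0.125, 0.0948 and 0.119. Per read of the Kupffer cell markers the C1q genes were higher in every HepKO library (0.154, 0.194 and 0.161 against 0.297, 0.313 and 0.332), and Fcna was lower (0.0622, 0.0706 and 0.0881 against 0.0447, 0.0399 and 0.0463). Slc40a1 was the largest part of the Kupffer cell sum in every WT library (189.5, 193 and 172 CPM). It rose least of that list (log2 fold change 0.46), so both ratios lean on it, and they were not computed without it. The part of cell numbers in these results was not tested.

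In the lectin pathway, Mbl2 rose and Masp2 fell, and their closest relatives Mbl1 and Masp1 gave no call. Mbl1 and Mbl2 encode the mannose-binding lectins A and C, which bind microbial sugars. Mbl2 had 331, 376 and 352 CPM in WT and 937, 610.5 and 766 CPM in HepKO and rose (log2 fold change 1.13 ± 0.16, edgeR adjusted p = 0.00156), with HepKO replicate 1 the highest. Mbl1 had 180.4, 161 and 199 CPM in WT and 135, 145 and 170.3 CPM in HepKO, with overlap and no call (log2 fold change -0.26 ± 0.13, edgeR adjusted p = 0.140; 0.25 with library totals). Within libraries, Mbl2 over Mbl1 read counts came to 1.84, 2.34 and 1.77 in WT and 6.96, 4.21 and 4.50 in HepKO, without overlap.

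Masp2 encodes the protease that cleaves C4 and C2 once the lectins bind. It had 262, 272 and 294 CPM in WT and 132, 132 and 145 CPM in HepKO and fell under both scalings (log2 fold change -1.02 ± 0.10, edgeR adjusted p = 3.34e-04; -0.50 with library totals, adjusted p = 0.00331). HepKO libraries were close together and far from WT, a ratio of means of 2.02. Masp1 encodes the protease that activates MASP-2, and its several splice products are counted together. It had 248, 223 and 245 CPM in WT and 198, 214 and 201 CPM in HepKO, which did not overlap and gave no call (log2 fold change -0.22 ± 0.10, edgeR adjusted p = 0.101), and its sign turned with library totals (0.29, adjusted p = 0.0295). The groups did not overlap in the within-library ratio of Masp1 to Masp2, which was 0.946, 0.819 and 0.832 in WT and 1.49, 1.62 and 1.38 in HepKO.

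**Figure D3:**
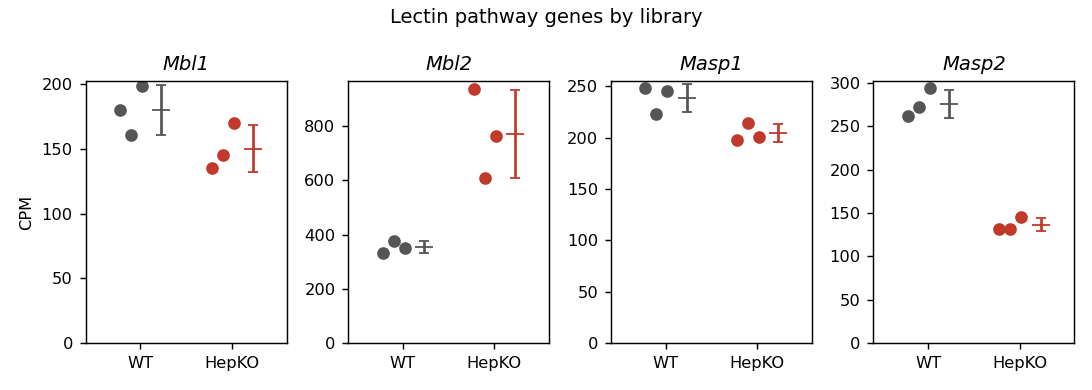
CPM (y axis, linear, from 0) of the mannose-binding lectin genes Mbl1 and Mbl2 and the protease genes Masp1 and Masp2 in each library of WT and HepKO, with points for libraries and mean ± SD (n = 3) beside them. Mbl2 is higher in all HepKO libraries (610.5 to 937 CPM) than in WT (331 to 376 CPM), and Masp2 is lower in all of them (132 to 145 CPM against 262 to 294 CPM).

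Of the parts of the C3 convertases, C2 rose and the abundant C3 and C4b gave no call. C2, the protease of the classical and lectin pathway convertase, had 29.0, 27.1 and 29.2 CPM in WT and 43.2, 44.1 and 43.1 CPM in HepKO (log2 fold change 0.61 ± 0.09, edgeR adjusted p = 0.00131). Its values were tight within each group, and the ratio of means was 1.53. C3, the central component, had 5371, 5894 and 5933 CPM in WT and 6013, 6949 and 6628 CPM in HepKO (log2 fold change 0.19 ± 0.14, edgeR adjusted p = 0.311; 0.70 with library totals, adjusted p = 0.00390). C4b, whose product forms the platform of that convertase, had 1216, 1249.5 and 1214 CPM in WT and 859.6, 1078 and 1114 CPM in HepKO (log2 fold change -0.27 ± 0.13, edgeR adjusted p = 0.142; 0.24 with library totals). Per kilobase of annotated exon, C3 had the highest level of all members in both groups, 1115 ± 61.0 CPM per kb in WT and 1269.7 ± 92.5 in HepKO (SD, n = 3). Vtn came next in WT (809.6 ± 79.7 CPM per kb), followed by Clu (404 ± 41.8) and Mbl2 (324 ± 20.7), whereas in HepKO the next were Mbl2 (708 ± 149.8) and Clu (651 ± 67.0), which did not differ beyond their spread, and then Vtn (535 ± 69.6). These lengths join the exons of all annotated transcripts, so the level of a gene with many transcripts is understated.

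In the alternative pathway, Cfd fell and Cfb gave no call. Cfb, whose product forms the alternative convertase with C3b, had 31.4, 45.9 and 41.0 CPM in WT and 29.7, 43.0 and 39.6 CPM in HepKO (log2 fold change -0.08 ± 0.18, edgeR adjusted p = 0.769; 0.43 with library totals, adjusted p = 0.0885). It lies 85 bases from C2 on the same strand of chromosome 17. Cfd encodes adipsin, the protease that cleaves factor B and is made chiefly in fat. It had 12.7, 16.8 and 66.4 CPM in WT, and 0, 1 and 4 counts (0, 0.0223 and 0.102 CPM) in HepKO. The groups were far apart, and WT replicate 3 was the highest library by a wide margin. Summed over libraries, 3248 WT counts against 5 HepKO counts gave a WT to HepKO ratio of 928 (95% counting interval 397 to 2859, counting error only). The edgeR call (log2 fold change -9.70 ± 1.07, adjusted p = 5.28e-04) was lost with limma-voom (adjusted p = 0.0638). Because Cfd passed the filter on low counts through the WT libraries alone, neither p-value adds support beyond the counts themselves. The ratio was 425 (182 to 1313) without WT replicate 3 and 3355 (602 to 132559) without HepKO replicate 3, where 1 HepKO count was left. Leaving out HepKO replicate 1 gave a log2 fold change of -9.00.

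Of 8 adipocyte markers, Lep had 0 counts in all libraries, and Adipoq had 7 counts in WT replicate 3, the library highest in Cfd, and 0 in the other 5. Retn, the resistin gene, had 5, 7 and 2 counts in WT and 0 in every HepKO library, so it was lower in HepKO like Cfd, at counts too low to test. Plin1 had 1 count in each of WT replicate 3 and HepKO replicate 1. In WT replicates 1 and 2, where Adipoq, Lep and Plin1 were at 0, Cfd had 375 and 604 counts. Of the 4 that were tested, Fabp4 rose and Car3 fell, while Cidec and Nnat gave no call. The 8 summed to 2344 to 5069.8 CPM in WT and 421 to 638 CPM in HepKO, nearly all of it Car3, which liver also expresses. The part of fat tissue in the Cfd result was not tested.

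Among terminal pathway genes, whose products build the membrane attack complex, C8g fell, and HepKO replicate 1 stood apart in C6, C8a, C8b and Hc. C8g, the lipocalin-like chain of C8, had 215, 229.8 and 265 CPM in WT and 94.3, 89.7 and 110.3 CPM in HepKO (log2 fold change -1.27 ± 0.13, edgeR adjusted p = 3.52e-04; -0.76 with library totals, adjusted p = 0.00149). All HepKO libraries were below all WT libraries, replicate 1 among them and not set apart. C8a and C8b encode the chains of C8 that insert in the membrane complex. C8a had 595, 470.1 and 725 CPM in WT and 102, 445 and 510.3 CPM in HepKO, with no call (log2 fold change -0.76 ± 0.50, edgeR adjusted p = 0.268), though it was called with no filter on low counts (-0.78, adjusted p = 0.0301). C8b had 208, 116 and 181 CPM in WT and 44.6, 159 and 265 CPM in HepKO (log2 fold change -0.11 ± 0.53, edgeR adjusted p = 0.893). HepKO replicate 1 was the lowest of the 6 libraries for both, and the groups overlapped. Without it the log2 fold changes came to -0.33 ± 0.18 for C8a and 0.32 ± 0.28 for C8b, again with no call (adjusted p = 0.212 and 0.420), while C8g was at -1.25 and still called.

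C8b (104766317 to 104804548, plus strand) and C8a (104815679 to 104876398, minus strand) lie 11130 bases apart on chromosome 4 with their start sites at the outer ends. Their windows are shown because both genes were lowest in the same library. Capitals mark TTNNGNAA or its reverse complement TTNCNNAA, a loose form of the sites of C/EBP factors, which drive many liver genes.

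C8a, chr4:104876399-104876648, minus strand: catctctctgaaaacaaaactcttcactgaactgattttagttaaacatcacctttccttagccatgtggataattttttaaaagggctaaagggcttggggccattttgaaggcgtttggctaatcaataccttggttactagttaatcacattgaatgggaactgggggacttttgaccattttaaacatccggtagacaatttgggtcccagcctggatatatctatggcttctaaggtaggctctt
C8b, chr4:104766067-104766316, plus strand: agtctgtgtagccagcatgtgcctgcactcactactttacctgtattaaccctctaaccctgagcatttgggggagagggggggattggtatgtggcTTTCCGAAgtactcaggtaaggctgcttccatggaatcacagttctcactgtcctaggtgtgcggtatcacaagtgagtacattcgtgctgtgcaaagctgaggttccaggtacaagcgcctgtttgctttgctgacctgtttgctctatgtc
The C8b window held 1 match, 153 bases before the start site, and the letters were not in the C8a window. Either orientation of that motif was found for 7 of 14 hepatocyte-made members, 5 of 8 myeloid-made members and 40.3% of all genes with a window. Of the other motifs searched on both strands, TGACNNNGC (the core of the antioxidant response element) was found for 2 of 8 myeloid-made and 0 of 14 hepatocyte-made members against 11.5% of all genes, and GGGNNNTCC (a part of NF-kB sites) for 1 of 8 and 1 of 14 against 16.9%. The longer palindromic HNF1 motif was found for 3 genes in all and for no member.

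C6, which joins C5b to open the complex, had 338, 205 and 240.0 CPM in WT and 31.0, 284 and 276 CPM in HepKO (log2 fold change -0.41 ± 0.66, edgeR adjusted p = 0.664). HepKO replicate 1 was far below all 5 other libraries, and without it the value was 0.09 ± 0.20 (adjusted p = 0.757). Hc, the mouse gene for C5, had 915, 918 and 1038 CPM in WT and 480.3, 875 and 914 CPM in HepKO (log2 fold change -0.34 ± 0.23, edgeR adjusted p = 0.284). Without that library Hc was at -0.10 ± 0.11 (adjusted p = 0.505). C9, which polymerises into the pore, had 388, 406 and 583 CPM in WT and 406, 543 and 632 CPM in HepKO (log2 fold change 0.20 ± 0.21, edgeR adjusted p = 0.491; 0.71 with library totals, adjusted p = 0.0212). Its HepKO replicate 1 lay within the WT range. The part of the sex-linked difference of that library in these values was not tested.

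**Figure D4:**
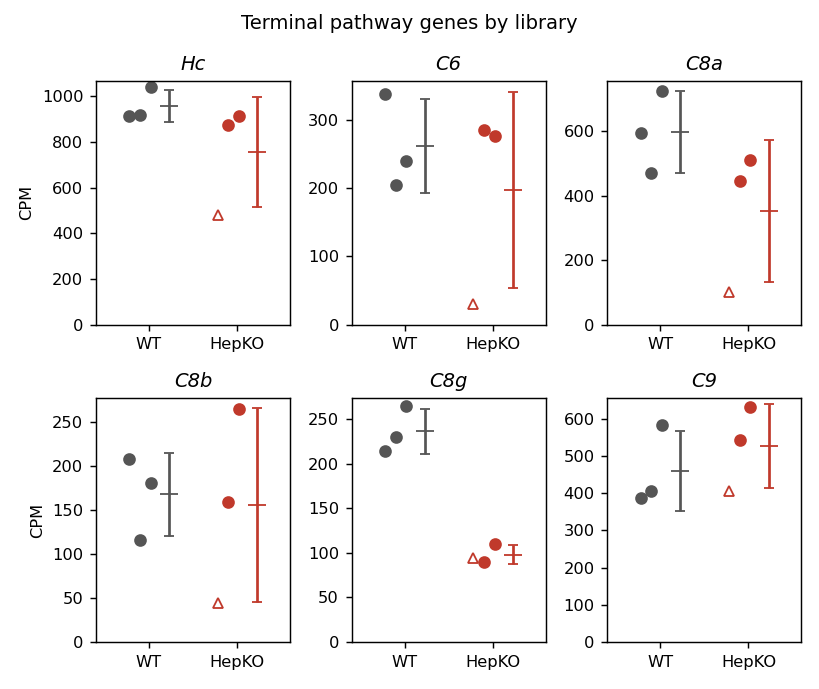
CPM (y axis, linear, from 0) of 6 terminal pathway genes in each library of WT and HepKO, with mean ± SD (n = 3) beside the points and HepKO replicate 1 drawn as an open triangle. The triangle lies below all other libraries for Hc, C6, C8a and C8b (31.0 CPM for C6, against 205 to 338 CPM in the others), and C8g separates the groups without it.

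Of the regulators in plasma, Clu rose, Vtn fell under TMM, and C4bp and Cfi gave no call. Clusterin, the product of Clu, and vitronectin, the product of Vtn, both keep terminal complexes from inserting in membranes. Clu had 1286, 1327 and 1553 CPM in WT and 2025, 2482 and 2206 CPM in HepKO (log2 fold change 0.69 ± 0.14, edgeR adjusted p = 0.00612; 1.20 with library totals). Bile duct cells also make clusterin, and 4 of 6 tested cholangiocyte markers rose (Epcam, Sox9, Spp1 and Cldn4). Cldn4 passed the filter on low counts through the HepKO libraries alone, and the Epcam call ended with limma-voom and without WT replicate 1, 2 or 3 or HepKO replicate 2. The 7 listed markers summed to 44.0 to 61.8 CPM in WT and 148 to 559.8 CPM in HepKO, nearly all of it Spp1 (515 CPM in HepKO replicate 2), which macrophages also make. HepKO replicate 2 was highest in Clu and in that sum, and the part of those cells in the Clu result was not tested. Vtn had 1811, 1489 and 1630.5 CPM in WT and 953, 1068 and 1234 CPM in HepKO, with no overlap (log2 fold change -0.60 ± 0.14, edgeR adjusted p = 0.0125), and its call ended with library totals (-0.09, adjusted p = 0.615). C4bp, a decay factor for the C4b convertase, had 834, 802 and 809.8 CPM in WT and 951, 954 and 979.6 CPM in HepKO (log2 fold change 0.24 ± 0.10, edgeR adjusted p = 0.0966). That small difference did not overlap between groups, and DESeq2 called it (adjusted p = 0.0109), as did edgeR with library totals (0.75, adjusted p = 6.95e-04). Cfi, the protease that inactivates C3b and C4b, had 701, 688 and 648 CPM in WT and 572, 583 and 619.7 CPM in HepKO (log2 fold change -0.20 ± 0.10, edgeR adjusted p = 0.161; 0.31 with library totals, adjusted p = 0.0335).

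Regulators anchored on host membranes were lower or gave no call. Susd4, a membrane inhibitor of C3 convertases, had 33.4, 15.1 and 29.2 CPM in WT and 1.41, 7.13 and 3.43 CPM in HepKO (log2 fold change -2.71 ± 0.55, edgeR adjusted p = 0.00643; -2.18 with library totals, adjusted p = 0.0112). Both groups varied widely, the closest libraries being WT replicate 2 and HepKO replicate 2, and it reached -3.45 when HepKO replicate 2 was left out. Without HepKO replicate 1, the lowest library, Susd4 was at -2.29 (edgeR adjusted p = 0.0064). Cd59a, which blocks C9 on host cells, had 78.9, 85.3 and 95.6 CPM in WT and 62.3, 50.6 and 55.9 CPM in HepKO (log2 fold change -0.62 ± 0.12, edgeR adjusted p = 0.00444; -0.11 with library totals, adjusted p = 0.428). Cr1l, which encodes Crry, the broad C3 regulator of rodent cells, had 54.0, 57.8 and 56.9 CPM in WT and 43.3, 42.7 and 43.9 CPM in HepKO (log2 fold change -0.38 ± 0.08, edgeR adjusted p = 0.00887). Its replicates were tight, but the call ended without WT replicate 2 (adjusted p = 0.0559) and with library totals (0.13, adjusted p = 0.212). Cd55, the decay accelerating factor, had 6.79, 12 and 10.5 CPM in WT and 13.6, 9.38 and 12.1 CPM in HepKO, with overlap (log2 fold change 0.27 ± 0.23, edgeR adjusted p = 0.404; 0.77 with library totals, adjusted p = 0.0269). Cd46, a cofactor for factor I that mice make chiefly in the testis, had 2.20, 2.20 and 2.43 CPM in WT and 1.72, 1.85 and 1.60 CPM in HepKO (log2 fold change -0.40 ± 0.26, edgeR adjusted p = 0.257; 0.11 with library totals).

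Counted over all 34 tested members, the 3 WT and 3 HepKO libraries did not overlap for 26, against 53.5% of all tested genes, and all 18 called members were among them. Hepatocyte-made members together took 1.32%, 1.36% and 1.40% of all reads in WT and 1.75%, 2.11% and 2.1% in HepKO. With TMM their summed level overlapped between the groups, at 15930.2, 15861 and 16956 CPM in WT and 14771, 17526 and 17706 CPM in HepKO. Of 9 hepatocyte markers tested, 6 fell and 0 rose (4 fell with library totals), and their sum took 11%, 9.65% and 8.64% of reads in WT and 5.61%, 7.27% and 7.45% in HepKO. Per 100 reads of those markers, the hepatocyte-made complement genes had 12, 14.1 and 16.2 reads in WT and 31.3, 29.0 and 28.2 in HepKO. C3 alone had 5.95, 7.64 and 8.62 reads per 100 of Alb, the albumin gene, in WT and 20.4, 19.6 and 18.2 in HepKO. Both ratios were higher in every HepKO library, but they are not independent. Alb was most of the marker sum (90310.2 of 132319.8 CPM in WT replicate 1, 29488 of 47244 CPM in HepKO replicate 1). C3 was also counted among the hepatocyte-made genes. Myeloid-made members had 5.35, 9.12 and 5.78 reads per 1000 of the hepatocyte-made members in WT and 25.4, 12.8 and 21 in HepKO, a mean of 6.75 ± 2.06 against 19.7 ± 6.41 (SD, n = 3 each), with HepKO replicate 2 nearest to WT. No test was made of these sums, since the genes were chosen with earlier results known.

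**Figure D5:**
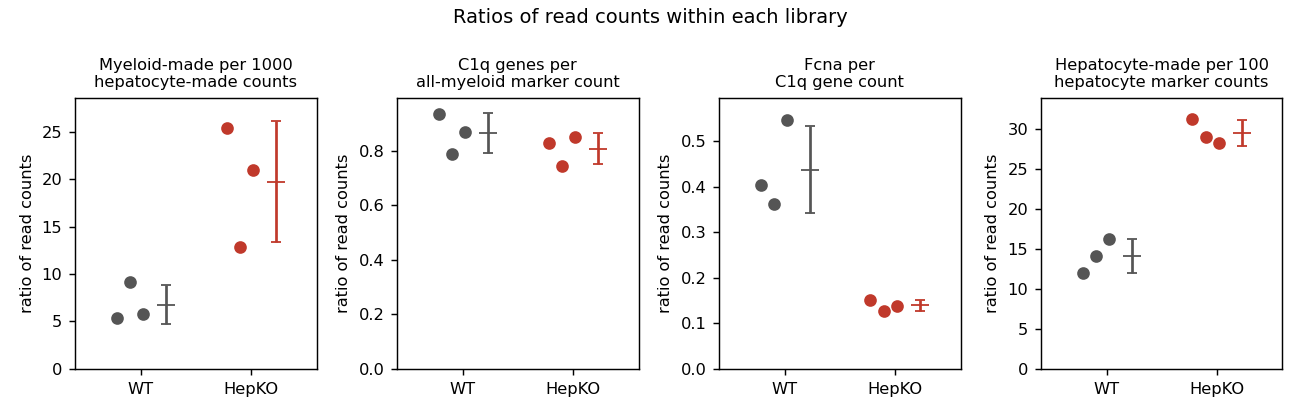
Ratios of read counts within each library (y axes, linear, from 0) in WT and HepKO, with mean ± SD (n = 3) beside the points. From left to right are myeloid-made per 1000 hepatocyte-made counts, C1q genes per all-myeloid marker count, Fcna per C1q gene count, and hepatocyte-made per 100 hepatocyte marker counts. The groups separate in each panel but that of the C1q genes per all-myeloid marker count, where WT spans 0.789 to 0.935 and HepKO 0.743 to 0.852.

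The rest of the pathway was followed in 26 further genes, of which 22 were tested. With TMM 6 rose and 9 fell, against 19.5% and 18.7% of all tested genes. With library totals 9 were higher and 4 lower, against 46.4% and 5.84%. The 3 integrin chains of the complement receptors on leukocytes rose: Itgax (log2 fold change 2.80 ± 0.33, edgeR adjusted p = 7.09e-04), Itgam (2.0 ± 0.53, adjusted p = 0.0196) and Itgb2 (1.88 ± 0.41, adjusted p = 0.00878). The Itgam call ended without HepKO replicate 3 (adjusted p = 0.0614), and Itgb2 was at 2.53 without WT replicate 2. Cd93, once thought a C1q receptor, rose from 6.12, 7.16 and 3.45 CPM to 16.7, 16.2 and 15.3 CPM (1.52 ± 0.25, edgeR adjusted p = 0.00244). Vsig4, the C3b receptor of Kupffer cells, rose (1.1 ± 0.32, edgeR adjusted p = 0.0278), with overlapping groups and no call without any 1 of WT replicates 1 and 3 and HepKO replicates 1 and 3 (adjusted p = 0.0637 to 0.0943). Cpb2, a plasma carboxypeptidase that inactivates C3a and C5a, had 425, 436 and 443 CPM in WT and 569.6, 631 and 716 CPM in HepKO and rose (0.56 ± 0.12, edgeR adjusted p = 0.00756).

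C1rl, a C1r-like protease, fell under both scalings (log2 fold change -1.05 ± 0.12, edgeR adjusted p = 5.65e-04). Cpn1, the catalytic chain of carboxypeptidase N (-0.73 ± 0.10, edgeR adjusted p = 0.00136), Colec12, a scavenger collectin (-0.41 ± 0.09, adjusted p = 0.00936), and Calr, a chaperone that binds C1q (-0.71 ± 0.13, adjusted p = 0.00425), fell with TMM and were not called with library totals. Cd59b, the copy of Cd59a (-0.82 ± 0.28, edgeR adjusted p = 0.0468), gave no call with library totals (adjusted p = 0.374), and of the 6 libraries only HepKO replicate 1 could be left out without loss of the call (0.0337; 0.0728 to 0.153 without each other library). C4a, the copy of C4b known as sex-limited protein, had 26.2, 34.9 and 152 CPM in WT and 4.12, 13.0 and 14.8 CPM in HepKO (-2.75 ± 0.74, edgeR adjusted p = 0.0210). Its call ended without WT replicate 3 (-1.51, adjusted p = 0.0543) and without HepKO replicate 2 (adjusted p = 0.0569), and HepKO replicate 1 was again the lowest library. Without HepKO replicate 1, C4a was at -2.37 (edgeR adjusted p = 0.0476). Reads of C4a and C4b, and of Cd59a and Cd59b, could have been split or dropped in counting, so these 4 values are uncertain. Serping1, the inhibitor of C1r and C1s, had 598, 563 and 674 CPM in WT and 521, 606 and 642 CPM in HepKO and gave no call (-0.05 ± 0.13, edgeR adjusted p = 0.776), though it was called higher with library totals (0.46, adjusted p = 0.0149).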

How the data were processed

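The authors deposited unnormalised counts of reads per gene for 6 libraries. Per the labels' protocols, total RNA was column-purified and polyA RNA was made into stranded libraries. Per the submitters' processing notes, the tools were STAR (2.7.11a), featureCounts (Subread 2.0.0) and edgeR (3.40.2), and the build was mm10. Annotation release and strand setting: not given in the sources used here. It is therefore not known whether reads of overlapping genes on opposite strands were separated. Ensembl IDs were matched without version to GENCODE M21 (GRCm38), which gave symbols for 55480 of 56350. Genes were filtered with filterByExpr (16051 kept), scaled with TMM (factors 0.824 to 0.860 in WT, 1.19 to 1.21 in HepKO) and tested 2-sided by group alone with glmQLFTest (edgeR 4.0.16, R 4.3.3) at a Benjamini-Hochberg adjusted p under 0.05. The SE was computed as the log2 fold change divided by the root of F, sign removed. Pairs of libraries within a group differed more than sampling noise allows (chi-square over its degrees of freedom was 27.1 to 137). Alternatives used DESeq2 1.42.0, limma-voom (limma 3.58.1), other scalings and filters, each library left out and other thresholds. The members, classes and lists were chosen with earlier results of these data known. All 35 members were to be named, with every other pathway gene called, of which some are not reported here; Serping1 and genes named for a marker were added after their values were seen. Of the marker lists, stellate cells (2 of 6 rose, 5 with library totals), endothelial cells (0 of 5 called, 3 higher with library totals) and B cells (0 of 4 called) are not discussed further.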

Additional observations from a re-analysis of the deposited data

How the results depend on the processing

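All 10 higher calls were kept with library totals and without each single library. All 18 called members kept their call with DESeq2, with median-of-ratios factors, with TMM computed without the 20 most abundant genes, with a filter of 1 CPM in 3 libraries, with no filter and without any 1 of WT replicate 1 and HepKO replicates 1, 2 and 3, while limma-voom lost Cfd. DESeq2 added C4bp as higher, and no filter added C8a as lower (9 members and 5 hepatocyte-made members lower). With no filter, 3060 of all 29794 genes tested were lower. With library totals 18 members were higher and 4 lower, 9 hepatocyte-made members were higher and 2 lower, and the class medians were 0.30 (hepatocyte-made) and 2.29 (myeloid-made). The log2 fold change then turned sign for C1s1 (0.09), Mbl1 (0.25), Masp1 (0.29), C4b (0.24), Cfb (0.43), Hc (0.17), C6 (0.11), C8b (0.41), Cfi (0.31), Cd46 (0.11) and Cr1l (0.13), in step with a median over all genes that went from 0.01 to 0.52. Leaving out 1 library at a time gave 10 members higher in each case, 6 to 8 lower, 3 to 4 hepatocyte-made members lower, 7 myeloid-made members higher, and medians of -0.29 to -0.02 and 1.64 to 2.08. Over all 16505 to 17145 genes tested in these fits, 2337 to 2816 were higher and 2055 to 2896 lower. Without HepKO replicate 1 the sign turned for Cfb (0.06), C6 (0.09) and C8b (0.32), without WT replicate 2 for Cfb (0.07), and without WT replicate 1 for C8b (0.07), none of them called. The leave-one-out ranges of these genes were -0.22 to 0.07 (Cfb), -0.77 to 0.09 (C6) and -0.74 to 0.32 (C8b). At an adjusted p under 0.01, 9 members were higher (Cfp lost) and 6 lower, 2 of them hepatocyte-made. Of all 16051 tested genes, 1751 were higher and 1693 lower at that threshold. Where a log2 fold change of 1 in size was required at 0.05, 8 members were higher (C2 and Clu lost) and 4 lower, 2 of them hepatocyte-made. Over all 16051 tested genes these counts were 2063 and 922. With the replicate number as a block, 10 members were higher and 8 lower, and no member's call changed. Of all 16051 tested genes, 2569 were higher and 2502 lower with that block. The numbers were not taken to pair the samples, since the labels do not say that they mark a shared litter, day or batch. Deviations of same-numbered libraries correlated at -0.139, -0.109 and 0.030, and those of differently numbered libraries at -0.157 to 0.218. With so few libraries these correlations cannot exclude a pairing.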
